A study of Mus musculus with 6 samples.

Results

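The core circadian clock of the mouse was followed here through 10 genes, Arntl (also called Bmal1), Clock, Npas2, Per1, Per2, Per3, Cry1, Cry2, Nr1d1 and Nr1d2. They were taken by gene symbol from a deposited table of 16375 genes, and all 10 were found. The values come from bulk RNA sequencing of mouse liver in 6 libraries. The 3 control libraries carry the treatment label control, and the 3 inosine libraries came from animals injected with inosine, a purine nucleoside, into the peritoneal cavity. No genotype, strain, sex, age, dose, number of injections or control vehicle is given in the sources used here, nor is the clock hour of injection or tissue collection. Whether the libraries of a group are separate animals is not in the labels. The p-values therefore cover only differences between libraries, which may be technical. In bulk tissue, fewer cells of a type and less RNA per cell cannot be told apart.

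The clock is a feedback loop of transcription that turns over about once a day in nearly every cell, the hepatocyte included. The proteins of Arntl and Clock, or of its paralog Npas2, pair up and bind E-box sequences, where they switch on the Per and Cry genes and the nuclear receptor genes Nr1d1 and Nr1d2. PER and CRY proteins then enter the nucleus and inhibit the pair that made them. NR1D1 and NR1D2, also known as REV-ERB alpha and beta, repress Arntl and other genes through a motif called RORE. In mouse liver Arntl transcripts are known to peak at a time of day when Nr1d1 transcripts are near their low point.

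The start regions of Arntl, Nr1d1, Cry1 and Per3, whose levels moved in opposite directions between libraries, are shown first. Only windows that held a match to a motif named below are printed, and not all of those. Clock and Nr1d2 also moved in opposite directions, but their windows held no match. RefSeq windows of 250 bases before to 50 after an annotated start, on build GRCm38.p6, were at hand for 9 of the 10 genes, in 13 windows. Each was searched on both strands for the E-box CACGTG, the related E-prime box CACGTT, the RORE core TAGGTCA or TGGGTCA, and the D-box TTATGNAA, which PAR bZIP factors such as DBP bind. Capitals mark the matches, and no matches overlapped each other. The second Arntl window (chr7:113207261-113207560, plus strand), the Nr1d1 window (chr11:98775328-98775627, minus strand), the Cry1 window (chr10:85185005-85185304, minus strand) and the Per3 window (chr4:151044616-151044915, minus strand) read, 5′ to 3′ in the direction of the gene:
Arntl: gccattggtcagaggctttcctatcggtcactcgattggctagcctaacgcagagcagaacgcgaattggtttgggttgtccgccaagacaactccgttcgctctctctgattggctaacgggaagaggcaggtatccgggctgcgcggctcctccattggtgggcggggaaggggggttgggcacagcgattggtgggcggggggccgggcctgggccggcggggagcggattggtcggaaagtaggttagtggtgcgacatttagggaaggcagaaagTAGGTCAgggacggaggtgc
Nr1d1: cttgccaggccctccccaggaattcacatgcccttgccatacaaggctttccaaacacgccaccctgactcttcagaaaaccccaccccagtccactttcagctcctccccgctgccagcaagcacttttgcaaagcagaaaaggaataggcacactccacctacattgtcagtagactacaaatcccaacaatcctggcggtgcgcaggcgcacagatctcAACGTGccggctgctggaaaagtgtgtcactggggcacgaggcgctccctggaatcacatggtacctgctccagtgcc
Cry1: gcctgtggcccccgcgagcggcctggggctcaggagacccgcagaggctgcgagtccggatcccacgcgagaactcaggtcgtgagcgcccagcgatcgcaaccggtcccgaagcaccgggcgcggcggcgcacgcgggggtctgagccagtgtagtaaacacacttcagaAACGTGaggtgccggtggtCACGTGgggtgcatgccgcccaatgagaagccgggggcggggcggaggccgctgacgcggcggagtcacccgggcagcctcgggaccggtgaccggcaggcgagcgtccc
Per3: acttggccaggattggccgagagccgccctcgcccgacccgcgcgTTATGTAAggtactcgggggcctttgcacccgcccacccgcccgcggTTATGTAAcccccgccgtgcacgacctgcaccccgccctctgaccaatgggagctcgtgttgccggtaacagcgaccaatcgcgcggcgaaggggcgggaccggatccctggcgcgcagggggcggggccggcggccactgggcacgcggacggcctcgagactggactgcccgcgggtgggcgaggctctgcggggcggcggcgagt

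The second Arntl window held 1 RORE core, whose first base lies at position 31 counted from 1 at the annotated start. The first Arntl window, not printed, held no match. In the Nr1d1 window 1 E-prime box began 28 bases before the start, on the other strand and so printed as AACGTG. The Cry1 window held an E-prime box and an E-box that began 79 and 60 bases before the start. In Per3 a pair of D-boxes began 205 and 158 bases before it. Among the other members, Per1 held an E-box and a D-box in 1 of its windows and Cry2 an E-prime box, while Clock, Npas2 and Nr1d2 held none of these letters. Over all 32851 windows of the same length in the RefSeq table, 7.15% held the E-box, 4.68% the E-prime box, 6.45% the RORE core and 3.38% the D-box. A match describes the letters in the window and not a bound site.

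Each library held 16383896 to 17505035 estimated counts, with 14703 to 14977 genes detected. The transcripts were those of liver: Alb, which encodes the hepatocyte product albumin, took 6.68% to 9.16% of the counts, and the other 7 hepatocyte markers were present. Levels below are TPM, which is scaled to transcript length and so allows genes to be set beside each other. Fold changes come from the counts of all 6 libraries, scaled by the TMM factors of edgeR, and each adjusted p is that of edgeR's quasi-likelihood test over 12326 genes, called at 0.05. Control replicate 1 stood apart from the other controls on several of the clock genes, so each member is given with and without that library.

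Arntl encodes the partner that every activating pair of the loop requires (gene ID 11865, chromosome 7, 112777820 to 112913333 on GRCm39). It measured 5.57, 0.73 and 0.42 TPM in controls 1 to 3 and 0.92, 0.91 and 1.44 TPM in inosine 1 to 3. These rest on 181, 26 and 15 counts in control and 32, 28 and 50 in inosine. Control 1 was the highest library and the other controls the lowest, with all 3 inosine libraries between them. Over 6 libraries the log2 fold change of inosine over control was -1.04 (SE 0.84, adjusted p = 0.59 by edgeR). Without control replicate 1 the sign turned, to 0.83 (SE 0.41, adjusted p = 0.31 by edgeR).

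Clock encodes the usual partner of ARNTL (gene ID 12753, chromosome 5, 76357715 to 76452675). Its level was 5.19, 2.22 and 2.22 TPM in control and 3.46, 3.98 and 4.15 TPM in inosine. The libraries fell in the same places as for Arntl, with control 1 on top and the inosine libraries between it and the other controls. The log2 fold change was 0.24 (SE 0.29, adjusted p = 0.73 by edgeR), and 0.71 without control replicate 1 (SE 0.13, adjusted p = 0.059 by edgeR). DESeq2 without that library called Clock higher (adjusted p = 0.002). Npas2, which can take the place of Clock (gene ID 18143, chromosome 1, 39233013 to 39402321), had 0, 1 and 2 counts in control and 1, 0 and 1 in inosine. At or under the floor of 3 counts that a count of 0 allows, no fold is given, and Npas2 did not pass the low-count filter.

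Nr1d1 encodes the repressor of Arntl (gene ID 217166, chromosome 11, 98658758 to 98666233). Its level was 2.93, 31.7 and 16.9 TPM in control and 7.54, 5.43 and 5.77 TPM in inosine. Control 1 was lowest, controls 2 and 3 were highest, and the inosine libraries lay between, the reverse of their places for Arntl. The full order was not reversed, as control 2 was above control 3 for both genes. The log2 fold change was -1.55 (SE 0.68, adjusted p = 0.35 by edgeR). With control replicate 1 left out, Nr1d1 fell to 0.242 of the control level, or -2.05 on the log2 scale (SE 0.27, adjusted p = 0.038 by edgeR). With control replicate 2 left out instead, the value was -0.72 (SE 0.61, adjusted p = 0.74 by edgeR), beside -1.44 for Arntl in that fit. The annotated span of Nr1d1 shares 5471 of its 7476 bases with that of its neighbour Thra, and the sources used here do not say whether strand was used in counting, so the division of reads between them is uncertain. Thra itself measured 5.21, 5.76 and 4.85 TPM in control and 4.91, 4.33 and 3.28 TPM in inosine.

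Nr1d2, the paralog of Nr1d1 (gene ID 353187, chromosome 14, 4230549 to 4265640), measured 28.6, 38.8 and 41.7 TPM in control and 31.3, 34.8 and 29.9 TPM in inosine. The order matched that of Nr1d1 in that control 1 was lowest and the inosine libraries lay between it and the other controls, on a narrower range. The log2 fold change was -0.26 (SE 0.15, adjusted p = 0.46 by edgeR) and -0.41 without control replicate 1 (SE 0.08, adjusted p = 0.071 by edgeR). DESeq2 without that library called Nr1d2 lower (adjusted p = 0.0016). As the 2 receptors moved over different ranges, the level of Nr1d2 was 9.76 times that of Nr1d1 in control 1, but 1.22 and 2.46 times in controls 2 and 3. In the inosine libraries it was 4.15, 6.4 and 5.18 times that of Nr1d1.

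**Figure D1:**
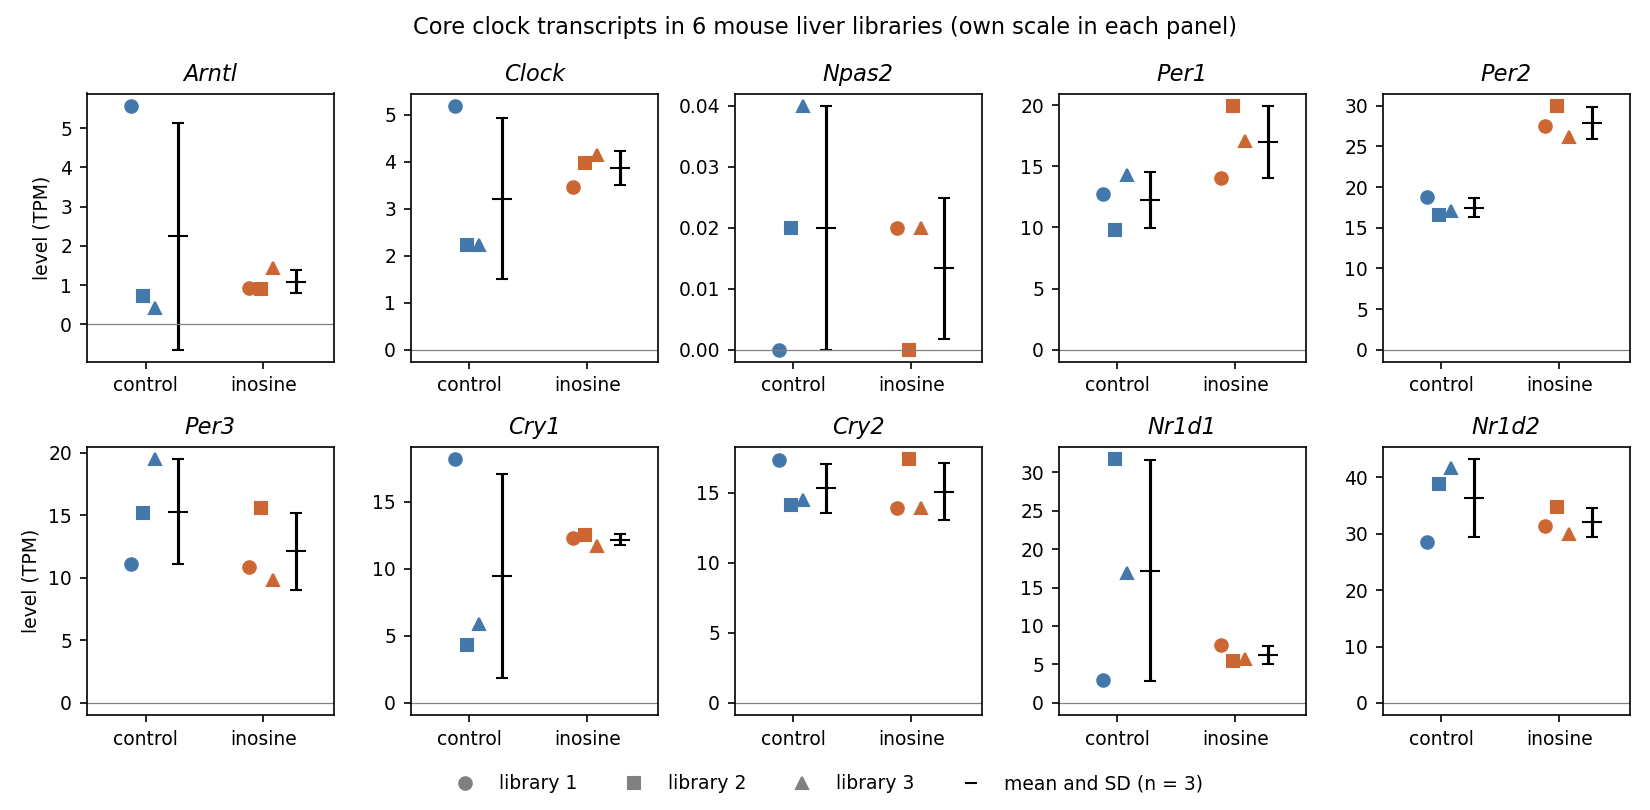
Level in TPM (own axis in each panel) of the 10 core clock transcripts in 3 control and 3 inosine libraries. Each point is 1 library, and the bar beside the points is the mean with its SD (n = 3). For Arntl, Clock, Cry1, Nr1d1 and Nr1d2 the inosine points lie between control 1 and the other controls, while for Per2 all inosine points (26.1 to 30 TPM) lie above all controls (16.6 to 18.8 TPM).

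Cry1 encodes a repressor of the ARNTL pair (gene ID 12952, chromosome 10, 84967564 to 85020918). It measured 18.2, 4.32 and 5.88 TPM in control and 12.3, 12.5 and 11.7 TPM in inosine. The inosine libraries differed little among themselves and again lay between control 1 and the other controls. The log2 fold change was 0.32 over 6 libraries (SE 0.45, adjusted p = 0.78 by edgeR). With control replicate 1 left out, Cry1 rose 2.26-fold, or 1.18 on the log2 scale (SE 0.14, adjusted p = 0.035 by edgeR). Without control replicate 2 the value was -0.02.

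Its paralog Cry2 (gene ID 12953, chromosome 2, 92233991 to 92264426) was nearly level across libraries, with 17.3, 14.1 and 14.5 TPM in control and 13.9, 17.4 and 13.9 TPM in inosine. The groups overlapped, and the log2 fold change was -0.08 with a 95% interval of -0.31 to 0.15 (adjusted p = 0.75 by edgeR). Leaving out control replicate 1 gave 0.00 (95% interval -0.23 to 0.23). The ratio of Cry1 to Cry2 therefore followed Cry1. It was 1.05 in control 1, 0.307 and 0.407 in the other controls, and 0.882, 0.72 and 0.838 in inosine.

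The Per genes encode the partners of the CRY repressors, and the 3 paralogs did not follow a common order. Per2 (gene ID 18627, chromosome 1, 91343699 to 91387072) measured 18.8, 16.6 and 17 TPM in control and 27.5, 30 and 26.1 TPM in inosine. It was the only member whose groups did not overlap, and control 1 lay with the other controls. The log2 fold change was 0.61, or 1.53-fold (SE 0.07, 95% interval 0.44 to 0.78), with an edgeR adjusted p of 0.053, just outside the threshold. The value without control replicate 1 was 0.65 and passed (SE 0.08, adjusted p = 0.035 by edgeR). DESeq2 called Per2 higher over 6 libraries (adjusted p = 2.8e-06), and the authors' deposited table gives it a log2 fold change of 0.614 with a q-value of 4e-06.

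Per1, the paralog known for its rapid response to hormonal signals (gene ID 18626, chromosome 11, 68985934 to 69000791), measured 12.7, 9.78 and 14.3 TPM in control and 14, 19.9 and 17.1 TPM in inosine. Inosine 1 lay within the control range and the other inosine libraries above it. The log2 fold change was 0.40 (SE 0.16, adjusted p = 0.31 by edgeR) and 0.42 without control replicate 1 (SE 0.19, adjusted p = 0.28 by edgeR). Per3 (gene ID 18628, chromosome 4, 151081475 to 151129167) measured 11.1, 15.2 and 19.5 TPM in control and 10.9, 15.6 and 9.82 TPM in inosine. Its log2 fold change was -0.42 (SE 0.21, adjusted p = 0.41 by edgeR). Leaving out control replicate 1 gave -0.61 (SE 0.15, adjusted p = 0.12 by edgeR), and DESeq2 called it lower there (adjusted p = 0.024). The level of Per2 was 1.7, 1.09 and 0.871 times that of Per3 in control and 2.51, 1.93 and 2.66 times in inosine. The groups did not overlap in this ratio, but neither did they in Per2 itself, while in Per3 they overlapped. The ratio is therefore no result apart from that of Per2.

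Counted together, 0 of the 9 members tested passed edgeR over all genes, where 0.00811% of all genes did (1 of 12326). The unadjusted edgeR p was under 0.05 for 2 members, Per1 and Per2, both higher, beside 7.21% of all genes higher and 7.26% lower. Groups that did not overlap were found for 1 member and for 20.9% of all genes. Of the 9 members 4 had a log2 fold change above 0, as did 48.2% of all genes. Their median log2 fold change was -0.08 and the median size without regard to sign 0.40, against -0.01 and 0.15 over all genes tested. DESeq2 called 1 member, Per2, where 1.88% of genes were called. By the authors' deposited table the q-value is under 0.05 for Per2 alone of the members, beside 1.17% of all genes.

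Control replicate 1 was singled out because of its values on these same genes, and the DESeq2 fit without it was added after the data were seen. The calls without it, of members and of other genes alike, are therefore a description. Nothing is read from their share against that of all genes. Without that library 3 of the 9 members passed edgeR, with Cry1 and Per2 higher and Nr1d1 lower, where 0.449% of all genes passed (0.2% higher and 0.248% lower). The unadjusted p was under 0.05 for 6 of 9 members, beside 19.4% of all genes. DESeq2 without that library called 6 of 9, with Clock, Cry1 and Per2 higher and Nr1d1, Nr1d2 and Per3 lower, beside 4.84% of all genes (2.95% higher and 1.89% lower). The median size of the log2 fold change was then 0.65 over the members and 0.18 over all genes. In the 5 edgeR fits that left out any other library, 0 members passed.

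**Figure D2:**
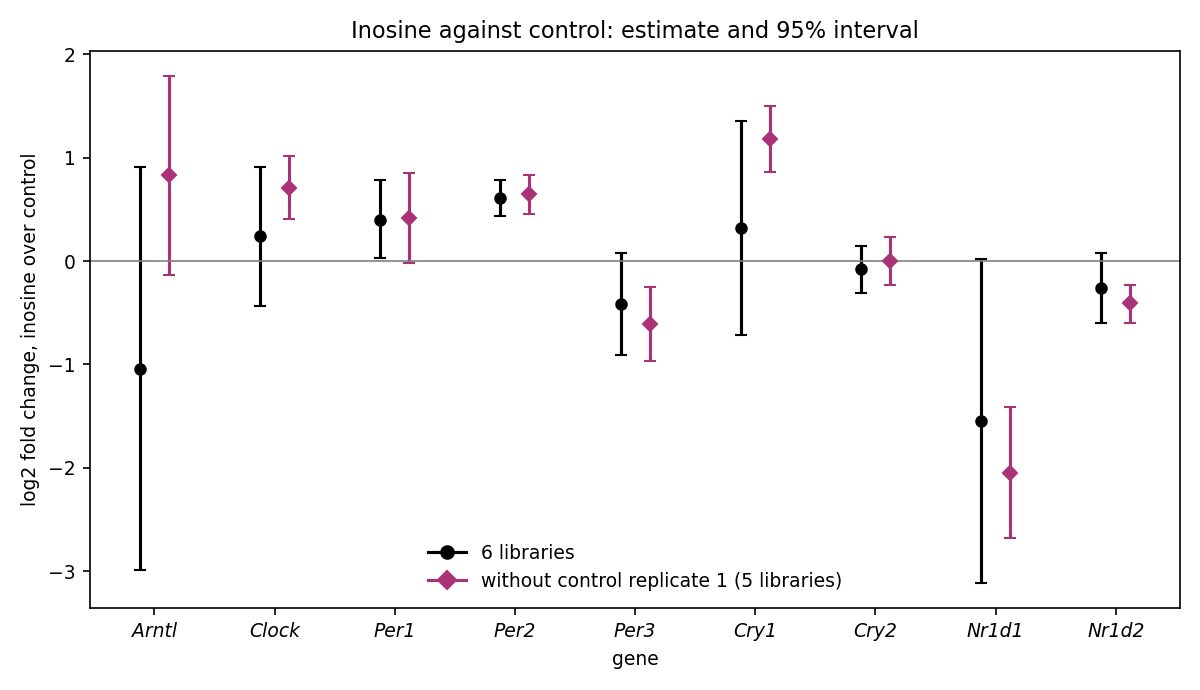
Log2 fold change of inosine over control (y axis) for the 9 members tested, from edgeR with 6 libraries (circles) and without control replicate 1 (diamonds). Bars are 95% intervals. Arntl changes sign from -1.04 to 0.83, the intervals of Clock, Cry1 and Nr1d1 narrow, and Per2 lies at 0.61 and 0.65.

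The spread between control libraries was large for part of the loop. On the log2 scale of TMM-scaled CPM (counts relative to library size), the 3 controls of Nr1d1 ranged over 3.49 (11.2-fold) and those of Arntl over 3.48 (11.1-fold). Only 0.26% and 0.268% of all genes tested ranged as far among the controls. The range was 1.99 for Cry1 and 1.13 for Clock, which 1.03% and 4.59% of genes reached. Per3, Nr1d2 and Per1 ranged over 0.86, 0.58 and 0.52, above the median of all genes, 0.29. Cry2 and Per2 lay below that median, at 0.23 and 0.11, so that 87.7% of genes had a wider control range than Per2 or the same.

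Much of this range lay between control 1 and the other controls. Control 1 stood above the mean of the other controls by 3.10 on the log2 scale for Arntl, 1.79 for Cry1 and 1.11 for Clock. It stood below that mean for Nr1d1, at -3.01, and for Per3 and Nr1d2, at -0.70 and -0.55. Over all genes tested the median size of the same deviation was 0.18 for control 1, beside 0.15 and 0.13 when controls 2 and 3 were treated in the same way. Controls 2 and 3 also differed from each other, with Nr1d1 at 31.7 against 16.9 TPM.

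The inosine libraries were closer together. Nr1d1 ranged over 0.55 among them, Cry1 over 0.14 and Clock over 0.37, while Arntl, at low counts, ranged over 0.91. The range was wider in control than in inosine for 8 of the 9 members, all but Cry2, and for 53.9% of all genes. For 5 members, Arntl, Clock, Cry1, Nr1d1 and Nr1d2, all 3 inosine libraries lay between control 1 and the other controls. This held for 6.08% of all genes tested (750 of 12326). The pattern was described after the values were seen and was not tested.

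**Figure D3:**
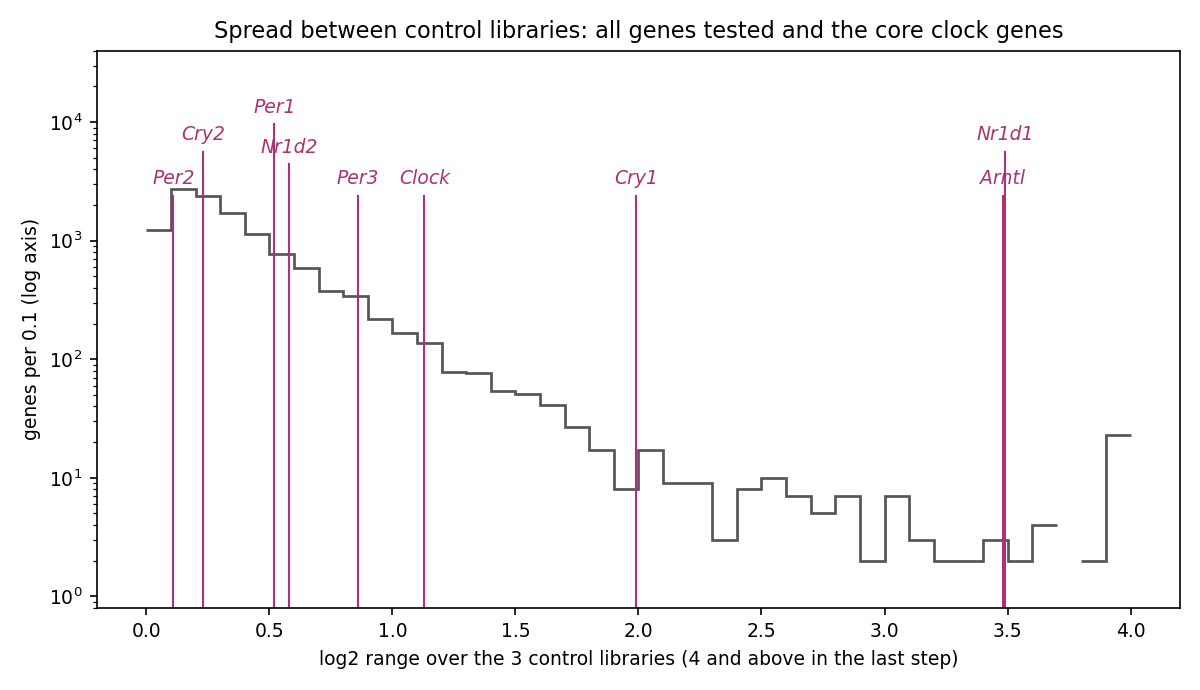
Number of genes (log axis) by the log2 range of their TMM-scaled CPM over the 3 control libraries, in steps of 0.1, for the 12326 genes tested (ranges of 4 and above are in the last step, and gaps are steps with no gene). Vertical lines mark the 9 members tested: Nr1d1 (3.49) and Arntl (3.48) lie far in the tail, and Per2 (0.11) near the narrow end.

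Across the 6 libraries some of the members fell into opposed sets, given here as a description of points that share libraries and depth. Per1 and Cry2 were tied to these sets less closely, with r of 0.41 and 0.49 with Clock and -0.52 and -0.51 with Nr1d1. Cry1 and Nr1d1 ran against each other with a Pearson r of -0.98 (Spearman rho -0.83), and with -0.97 over the 5 libraries without control 1. Clock and Cry1 ran together (r 0.95, rho 0.89), as did Nr1d1 and Nr1d2 (r 0.91, rho 0.77). Arntl and Nr1d1 were opposed (r -0.71, rho -0.77), and without control 1 less closely (r -0.50). For Per2 the pooled r was 0.00 with Arntl, 0.53 with Cry1 and -0.52 with Nr1d1, which takes in its difference between the groups. On deviations from the group means the values were 0.86, 0.82 and -0.82. These rest on small differences in Per2, whose log2 range was 0.11 in control and 0.09 in inosine. Control 1 stood 0.11 above the mean of the other controls for Per2. The 5 libraries without control 1, again pooled over the groups, gave 0.98 with Cry1 and -0.95 with Nr1d1. Each r over those 5 libraries takes in the differences between the groups. These values were picked from 36 pairs of members.

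The ratio of Nr1d1 to Arntl differed widely between single libraries. There was 0.526 times as much Nr1d1 as Arntl in control 1, against 43.4 and 40.3 times as much in controls 2 and 3. The inosine libraries held 8.2, 5.97 and 4.01 times as much. Controls 2 and 3 were thus alike in this ratio, although their levels differed. Both genes were lower in control 3 than in control 2, Nr1d1 at 16.9 against 31.7 TPM and Arntl at 0.42 against 0.73 TPM. Between these controls the genes therefore did not run against each other in these values. For Arntl, and so for the ratios, the values rest on only 26 and 15 counts in controls 2 and 3.

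**Figure D4:**
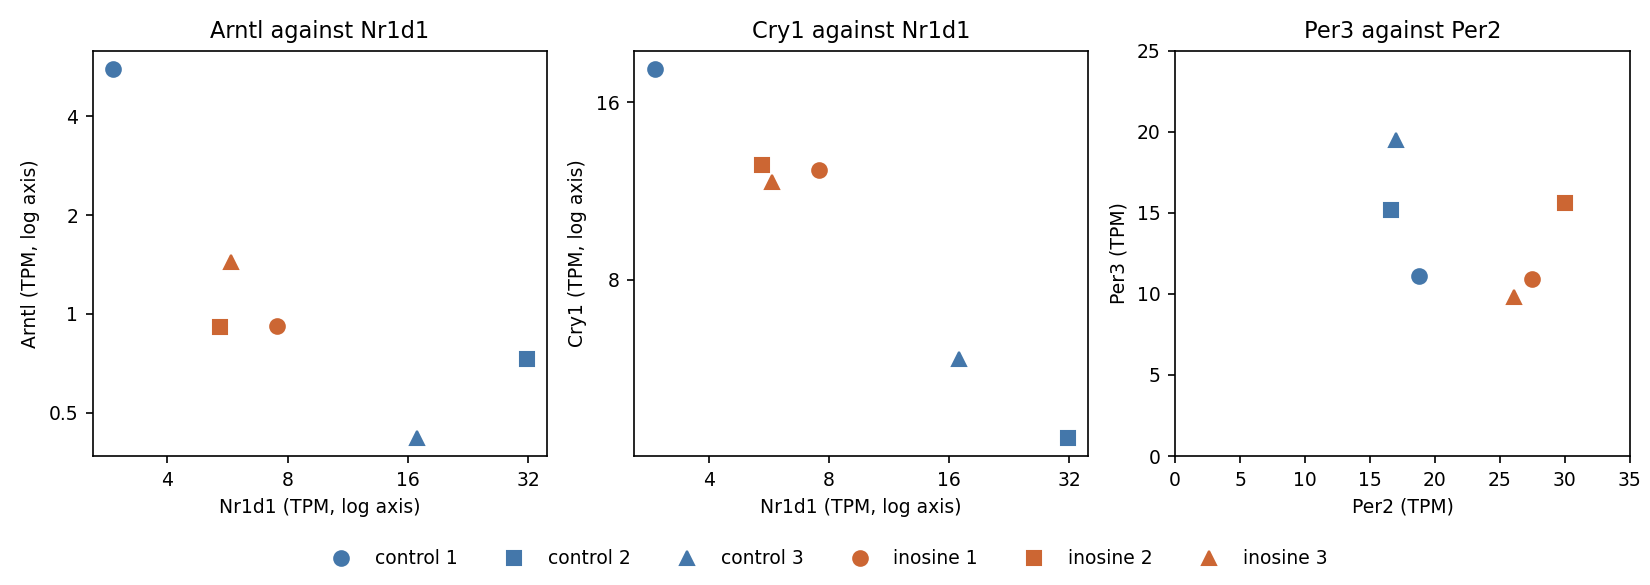
Levels in TPM of Arntl and Cry1 against Nr1d1 (both axes log) and of Per3 against Per2 (linear axes), 1 point per library, circles, squares and triangles for replicates 1 to 3. In the first 2 panels control 1 is at the upper left, controls 2 and 3 at the lower right and the inosine libraries between, and in the third the groups separate along Per2.

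The order of levels by TPM was headed in both groups by Nr1d2 (36.4 ± 6.89 in control and 32 ± 2.52 in inosine, SD, n = 3) and closed by Clock, Arntl and Npas2. Among the 3 controls each neighbour in the order overlapped the next from Per2 down to Arntl. The ranges of Per2, Cry2, Per3 and Per1 nevertheless lay wholly above those of Clock and Arntl, and that of Per2 above that of Per1. In inosine Per2 (27.9 ± 1.99 TPM) overlapped Nr1d2 above it but not Per1 below it (17 ± 2.94 TPM). Per1 overlapped Cry2 (15.1 ± 2.01 TPM), and Cry1 (12.2 ± 0.449 TPM) overlapped Per3 (12.1 ± 3.04 TPM). Nr1d1 (6.25 ± 1.13 TPM), Clock (3.86 ± 0.359 TPM) and Arntl (1.09 ± 0.303 TPM) were each clear of the next. Thus Nr1d1, level with Per2 in the control mean (17.2 ± 14.4 TPM), ranked seventh in inosine.

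A wider list of 32 genes of the clock and its outputs was set beside the members, and 31 of these genes were tested. In edgeR 0 passed over all genes. The unadjusted p was under 0.05 for 6 higher and 4 lower genes, beside 7.21% and 7.26% of all genes. Groups did not overlap for 5 higher and 3 lower, beside 11.1% and 9.8% of all genes. The median log2 fold change was -0.02. DESeq2 called 3 of the 31, Alas1, Nampt and Tspan4, all higher, where it called 0.967% of all genes higher.

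Among the 5 tested nuclear receptor and bHLH regulators the median was -0.06. Ciart, a repressor of the ARNTL pair, was at 0.05 on the log2 fold change scale (SE 0.27, adjusted p = 0.96 by edgeR), and -0.16 without inosine replicate 3. Bhlhe41, a repressor of the same pair, measured 0.08, 0.84 and 0.27 TPM in control and 0.12, 0.04 and 0.13 TPM in inosine, on 3 to 66 counts. It was the 1 gene of the 5 with an unadjusted edgeR p under 0.05, and its groups overlapped. Its log2 value was -2.08 (SE 0.84, adjusted p = 0.32 by edgeR).

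The PAR bZIP genes Dbp, Tef and Hlf, with Nfil3, are outputs of the loop. Dbp, a direct E-box target, measured 19.6, 142 and 132 TPM in control and 67.1, 58.3 and 37.5 TPM in inosine. As for Nr1d1, control 1 was lowest and controls 2 and 3 highest. Its log2 fold change was -0.97 (SE 0.62, adjusted p = 0.5 by edgeR), and without control replicate 1 it fell by 1.47 (SE 0.18, adjusted p = 0.035 by edgeR). Without control replicate 2 it was at -0.57. Hlf measured 0.26 (SE 0.10, adjusted p = 0.31 by edgeR).

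**Figure D5:**
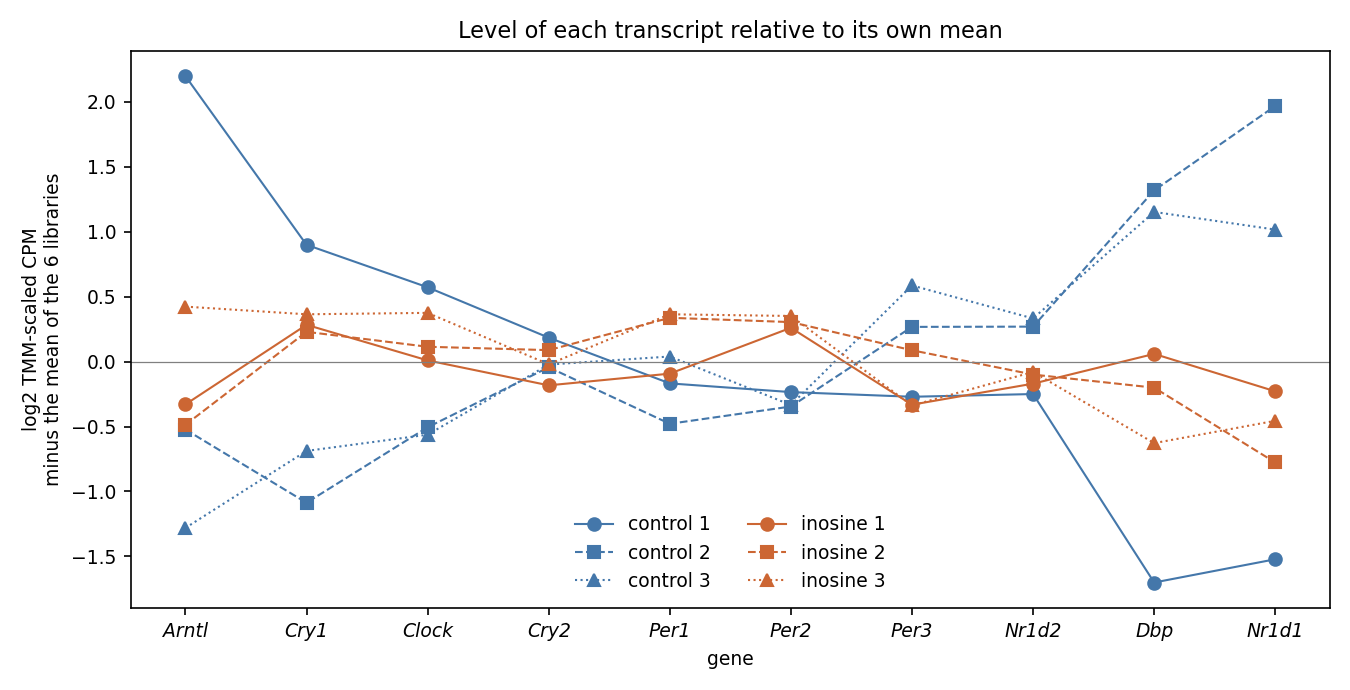
Log2 TMM-scaled CPM of 9 members with Dbp, less the mean of the 6 libraries for that gene (y axis). Lines join the values of 1 library, blue for control and orange for inosine. Control 1 runs from the top at Arntl to the bottom at Dbp and Nr1d1, controls 2 and 3 run the other way, and the inosine libraries lie between them at Arntl, Cry1, Clock, Nr1d2, Dbp and Nr1d1.

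Of the 12 kinases, ubiquitin ligases and partners of PER and CRY, 1 was higher and 2 lower at an unadjusted edgeR p under 0.05, beside 7.21% and 7.26% of all genes. Usp2, a deubiquitinase gene, was at 0.28 on the log2 scale (SE 0.10, adjusted p = 0.28 by edgeR). The kinase genes Csnk1d and Csnk1e, whose products phosphorylate PER, measured 0.06 and -0.28, with overlapping groups.

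Among the 10 clock-driven liver genes 4 were higher and 1 lower at the same threshold (7.21% and 7.26% of all genes), with a median of 0.21. Alas1, the first enzyme of heme synthesis and heme being the ligand of NR1D1, measured 502, 327 and 404 TPM in control and 724, 988 and 800 TPM in inosine. All inosine libraries lay above all controls, and the log2 difference was 0.97 (SE 0.17, adjusted p = 0.087 by edgeR; DESeq2 adjusted p = 1.4e-06). Nampt, an E-box target that makes NAD, measured 54.8, 32.7 and 48.1 TPM in control and 65.4, 95.5 and 62.6 TPM in inosine. Its log2 fold change was 0.65 (SE 0.19, adjusted p = 0.22 by edgeR). Tspan4, a tetraspanin gene, measured 0.51 (SE 0.09, adjusted p = 0.083 by edgeR), glycogen synthase Gys2 0.27 (adjusted p = 0.3 by edgeR) and the cell cycle kinase Wee1 -0.25 (adjusted p = 0.31 by edgeR). Without control replicate 1 edgeR called Alas1 higher and Dbp lower of these 31 genes, where 0.2% of all genes were called higher and 0.248% lower.

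Per1 and Per2 are also known targets of the glucocorticoid receptor, so 12 glucocorticoid-induced genes are given beside them. In edgeR 0 of the 12 passed, beside 0.00811% of all genes, and 0 had an unadjusted p under 0.05, beside 14.5%. DESeq2 called 0, beside 1.88% of all genes. The median log2 fold change was 0.19, against -0.01 over all genes tested, with 9 genes above 0 and 3 below. The member of smallest p, Zbtb16, measured 7.55, 2.85 and 1.31 TPM in control and 8.12, 5.32 and 11.5 TPM in inosine (log2 fold change 1.08, SE 0.57, adjusted p = 0.43 by edgeR). It was at 1.95 without control replicate 1 (adjusted p = 0.099 by edgeR and 0.043 by DESeq2), 0.67 without control replicate 3 and 0.68 without inosine replicate 3. Fkbp5, which encodes a co-chaperone of the receptor and was chosen after its values were seen, measured 70.3, 8.62 and 11 TPM in control and 36.2, 64.3 and 65.4 TPM in inosine. Control 1 was thus the highest library on Fkbp5 in TPM. Its deviation from the mean of the other controls on the log2 scale was 2.79 for Fkbp5. Over the 12 genes that deviation ran from -0.07 for Mt1 to 4.75 for Cdkn1a. Without control replicate 1 the median of the list was 0.76, edgeR called 1 gene, Fkbp5 (log2 fold change 2.43, SE 0.29, adjusted p = 0.035 by edgeR), and DESeq2 called 5. The shares of all genes called in those fits were 0.449% and 4.84%. As control replicate 1 was singled out by its values, these calls are a description only. The part of glucocorticoid signalling in the clock gene levels was not tested.

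Marker lists of other cells were summed in each library. The 6 Kupffer cell markers summed to 188, 257 and 255 TPM in controls 1 to 3 and 186 to 225 TPM in inosine, so control 1 was with the inosine libraries. The 5 erythroid markers summed to 2950 to 3556 TPM in control and 1249 to 2382 TPM in inosine. For the sinusoidal endothelium (77.1 to 87.3 and 54.1 to 93.6 TPM), stellate cells (123 to 145 and 91.2 to 156 TPM) and cholangiocytes (3.27 to 4.23 and 3.06 to 4.47 TPM) the control range lay inside the inosine range. The 4 lymphocyte markers summed to 5.45 to 7.43 TPM in control and 2.78 to 5.77 TPM in inosine. A pair of pancreatic genes summed to 21.1 to 34 and 11.7 to 25.4 TPM. In each of these lists every gene had counts in at least 1 library. Their part in the clock gene levels was not tested.

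The genes most like Arntl over the 6 libraries, among 7688 other genes with a mean of at least 10 CPM, were Prob1 (Pearson r 0.994), Trappc11 (0.990), Insig2 (0.978) and Nup205 (0.978). Insig2, which encodes an endoplasmic reticulum protein that restrains sterol synthesis, measured 356, 155 and 98.9 TMM-scaled CPM in control and 136, 123 and 171 in inosine. In all, 16 genes reached an r of 0.95 with Arntl (0.208% of the 7688), and 40 with Nr1d1 (0.52%). The named genes are the highest of these 7688 over 6 points, and their likeness was not tested. The genes most like Nr1d1 were Atp11a (0.990), Mst1 (0.984), Lyz2 (0.984) and Fkbp15 (0.983). Atp11a, a phospholipid flippase gene, measured 9.87, 19.3 and 17.3 TMM-scaled CPM in control and 13, 10.9 and 12.5 in inosine. None of these 8 genes passed edgeR over 6 libraries.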

How the data were processed

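Bulk RNA of mouse liver, extracted with Trizol per the labels' protocols, was sequenced in 3 control and 3 inosine libraries. The authors deposited estimated counts per gene, of which about 90% are whole. They also deposited TPM and FPKM per library, and a log2 fold change, p-value and q-value per gene from DESeq2, per the file headers. FPKM were not used in results. Per the submitters' processing notes, Bowtie2 and RSEM were used with GRCm39, and no version is given. Gene strands in the table differ from RefSeq for some genes and are not given.

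Counts were rounded and tested with edgeR 4.0.16 in R 4.3.3 (TMM, default filter at 10 counts, group as the term, Benjamini-Hochberg over 12326 genes, two-sided). The SE is the size of the log2 fold change over the square root of F. DESeq2 1.42.0 and limma 3.58.1 were alternatives. The tests were checked on simulated data. Between-library relations use log2 CPM with a prior count of 2. Intervals and floors cover counting error or library spread only. 0 columns of per-sample values were left unmapped.

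The members and lists were chosen with earlier results of these data known. Genes named are all members, the genes of smallest p in the wider clock list (up to 8) and in the glucocorticoid list, Dbp and Ciart, and the 4 genes most like Arntl and the 4 most like Nr1d1. Others were named after their values were seen: Bhlhe41, Csnk1d, Csnk1e, Fkbp5 and Thra. Some genes that this rule names are not reported here.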

Additional observations from a re-analysis of the deposited data

How the results depend on the processing

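With 3 libraries a group, 1 library decides much of what is called. Over the 6 omissions of a library, edgeR called 0 to 56 genes in all, 0 to 3 members and 0 to 2 genes of the wider clock list, each highest without control replicate 1. Genes called over all were 212 with DESeq2, 6 with limma-voom, 9 without a low-count filter, 7 with a filter at 50 counts, 0 with limma on log2(TPM + 1) or log2(TPM + 0.1) and 0 with a replicate block, against 1 in the main fit. DESeq2 called 1 member and 3 wider genes over 6 libraries. DESeq2 without control replicate 1, added after the data were seen, called 496 genes, 6 members and 6 wider genes. In that fit the sign turned for Arntl (0.85), Cry2 (0.01), Prob1 (0.24), Trappc11 (0.11), Insig2 (0.18) and Nup205 (0.16).

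Over the omissions Nr1d1 ranged from -2.05 to -0.72, Arntl from -1.53 to 0.83, Cry1 from -0.02 to 1.18, Cry2 from -0.14 to 0.00, Ciart from -0.16 to 0.33, Prob1 from -0.39 to 0.24, Trappc11 from -0.08 to 0.11, Insig2 from -0.83 to 0.18 and Nup205 from -0.12 to 0.16. Ciart turned in limma-voom (-0.03) and with the replicate block (-0.01). Trappc11 turned in limma-voom, without a filter and with the block (0.00 each) and in both TPM fits (0.06). Nup205 turned in limma-voom (0.00) and the TPM fits (0.07 and 0.09). In the main fit Trappc11 and Nup205 were at -0.01 each and Ciart at 0.05, so small shifts turned their signs in these fits. The cause was not tested. Same-numbered libraries did not deviate together (correlations of -0.04, -0.03 and -0.02), and no library correlated best with its own number. As the values for all pairs of numbers were small (-0.08 to 0.12), they cannot show whether the numbers pair the libraries. The fit with the replicate block called 0 members. The adjusted p of Per2 ranged from 1.6e-08 to 0.24 over all fits. Arntl, at 15 to 181 counts, did not pass the filter at 50 counts.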
